A study of Mus musculus with 9 samples.

Results

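Small nucleolar RNAs (snoRNAs) guide the chemical modification of ribosomal and other RNAs, and most of them in mammals are cut from the introns of host genes. Some hosts, such as Gas5 and the Snhg (snoRNA host gene) family, encode no known protein: the introns give the snoRNAs, while several of the spliced transcripts are engaged by ribosomes and cleared by nonsense-mediated decay, a decay route that depends on translation. Malat1 and Neat1 are long noncoding RNAs (lncRNAs) that stay in the nucleus. Malat1 accumulates in nuclear speckles, bodies rich in splicing factors, and Neat1 is the scaffold of paraspeckles, bodies built from Neat1 and RNA-binding proteins.

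The transcripts described here were chosen by gene symbol: the hosts Gas5, Snhg1, Snhg3, Snhg5, Snhg6, Snhg8, Snhg12 and 1110038B12Rik, with Malat1 and Neat1. Of these 10 symbols, 9 were found among the 35321 genes of the table (7 of 8 hosts and both nuclear lncRNAs), and Snhg3 was not analysed here. Poly(A)-selected RNA was sequenced from tumours that LLC (Lewis lung carcinoma) cells formed under the skin on the right side of C57BL/6 males 4 to 5 weeks old. The line itself derives from a C57BL/6 mouse. From 5 days after injection of the cells, PBS (vehicle) or digoxin, at 0.1 mg/kg in one group and 1 mg/kg in another, went into the peritoneum, and each group had 3 samples. Digoxin blocks the sodium pump (Na,K-ATPase), which keeps sodium low and potassium high inside cells. Whether samples of one group come from different mice is not stated, so p-values here reflect the spread between samples alone, and that spread may be technical. The host is an intact mouse, so the tissue holds host cells as well as LLC cells.

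The values are FPKM (fragments scaled by gene length and library depth), so levels are per length, with the lengths the authors used, which for Snhg5 and Snhg6 lie far above the annotated exons (given further on). The depth in their denominator, recovered from the spacing of the values, was 48649867 to 51810956 in vehicle libraries, 42870997 to 43319883 in those of the lower dose and 40517062 to 42252370 in those of the higher dose. Each of the 9 transcripts rested on 787 reads (Snhg8) to 65255 reads (Neat1) in a library, so spread between libraries and not counting error limits the comparisons. All 9 passed the filter (1 FPKM or more in 3 or more of the 9 libraries), as 13687 genes did, and were tested with limma on log2(FPKM + 1). A gene was called at an adjusted p under 0.05, with Benjamini-Hochberg adjustment over all 13687 genes.

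As a check of the labelled tumour, the epithelial genes Krt8, Krt18 and Krt19 were detected in every group but did not move together. Krt8 averaged 2.76, 85.6 and 115 FPKM with vehicle, 0.1 and 1 mg/kg, and Krt18 averaged 55.7, 6.46 and 3.65 FPKM. Krt19 averaged 0.269, 3.62 and 8.81 FPKM, so with vehicle it lay under the 1 FPKM of the filter. Epcam was listed at 0 in vehicle sample 1 and in 1 mg/kg sample 3, and neither it nor Cdh1 passed the filter. Markers of host cells were present throughout. Summed FPKM of 4 leukocyte markers was 240 to 283 with vehicle, 343 to 538 with 0.1 mg/kg and 267 to 317 with 1 mg/kg. These 4 did not move together. Tyrobp, Cd52 and Laptm5 were called higher at 0.1 mg/kg, while Ptprc was called at neither dose (limma adjusted p = 0.651 and 0.219). At 1 mg/kg Ptprc lay below every vehicle sample (3.29 to 4.02 against 4.05 to 4.63 FPKM). For 5 skeletal muscle markers the sum was 42.2 to 94.1, 146 to 258 and 72.3 to 789. For 18 mitochondrial transcripts, which are not markers of host cells, it was 9990 to 11100, 16300 to 21800 and 11400 to 24800. For 5 fibroblast markers it was 681 to 757, 279 to 475 and 300 to 451, most of it Col3a1, and the markers went both ways. Col3a1 and Pdgfra were called lower at both doses, while Col1a1 was called higher at both and Col1a2 at 0.1 mg/kg. In bulk samples, fewer cells of a type and less RNA per cell cannot be told apart, and the part of these shifts in the results below was not tested.

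RNAs of the snoRNA host class often start with a pyrimidine-rich stretch resembling the 5′ terminal oligopyrimidine tract of ribosomal protein mRNAs, which couples their translation to growth signals. The start sites are shown for that reason, 30 bases before to 30 after the start, 5′ to 3′ on the gene's strand, from RefSeq on GRCm38.p6. The build named in the submitters' notes was a human one, so these coordinates come from RefSeq and not from the deposited values. Capitals mark the word CTTT within 20 bases of the start, a word chosen after the sequences had been seen. For Gas5 both listed starts are shown, the downstream one (chr1:161035136-161035195), which holds the word, and the upstream one (chr1:161034571-161034630), which does not, with Snhg5 (chr9:88522868-88522927), Snhg8 (chr3:123508307-123508366), Snhg12 (chr4:132308648-132308707), 1110038B12Rik (chr17:34952442-34952501), Snhg1 (chr19:8723457-8723516) and, as a nuclear RNA that is not a host, Malat1 (chr19:5802643-5802702).
Gas5: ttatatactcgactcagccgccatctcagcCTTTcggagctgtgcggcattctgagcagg
Gas5, upstream start: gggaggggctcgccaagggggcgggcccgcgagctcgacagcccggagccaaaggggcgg
Snhg5: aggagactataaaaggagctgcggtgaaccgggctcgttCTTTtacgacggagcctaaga
Snhg8: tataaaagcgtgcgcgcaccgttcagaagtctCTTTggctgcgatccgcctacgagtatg
Snhg12: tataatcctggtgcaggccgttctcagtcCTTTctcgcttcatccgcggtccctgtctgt
1110038B12Rik: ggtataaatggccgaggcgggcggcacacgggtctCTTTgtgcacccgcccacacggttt
Snhg1: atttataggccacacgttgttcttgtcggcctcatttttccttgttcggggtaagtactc
Malat1: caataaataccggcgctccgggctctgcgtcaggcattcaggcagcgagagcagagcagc

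The word was found on the gene's strand at 6 of the 9 start sites listed for hosts (7 genes, Snhg3 counted among them), against 15.9% of all 32851 start sites in the table. On the opposite strand it was found at 1 of the 9, against 15.2% of all start sites. The 9 include a pair for 1110038B12Rik that overlap in sequence and hold the same copy of the word, so by gene it was 5 of 7. Because the word was picked after these sequences had been seen, its share among them is no test of the hosts. Snhg1 has a stretch rich in T and C after its start that does not hold the word, and the Malat1 window does not hold it. The match is a description of letters and not of a bound factor.

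Malat1 and Neat1 rose at both doses of digoxin, and they had the largest differences from vehicle of the 9 transcripts. Malat1 had 12.62, 17.57 and 15.64 FPKM in the vehicle tumours, 35.59, 34.46 and 30.07 FPKM at 0.1 mg/kg and 60.40, 48.62 and 43.80 FPKM at 1 mg/kg. Every digoxin sample was above every vehicle sample, and every sample at 1 mg/kg was above every sample at 0.1 mg/kg. The group means were 33.4 ± 2.92 FPKM at 0.1 mg/kg and 15.3 ± 2.49 FPKM with vehicle (SD, n = 3), a ratio of 2.18. The log2 difference was 1.09 (SE 0.147, limma adjusted p = 0.00136). At 1 mg/kg the mean was 50.9 ± 8.54 FPKM, 3.33 times the vehicle mean, with a log2 difference of 1.67 (SE 0.147, limma adjusted p = 0.000272).

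Neat1 had 24.71, 26.00 and 27.44 FPKM in the vehicle tumours, 56.45, 51.15 and 53.32 FPKM at 0.1 mg/kg and 63.50, 76.00 and 74.59 FPKM at 1 mg/kg. The 3 groups again did not overlap, in the order of the dose. Neat1 averaged 53.6 ± 2.66 FPKM at 0.1 mg/kg and 26.0 ± 1.37 FPKM with vehicle (SD, n = 3), a ratio of 2.06 and a log2 difference of 1.01 (SE 0.087, limma adjusted p = 0.000295). At 1 mg/kg it averaged 71.4 ± 6.85 FPKM, 2.75 times vehicle, with a log2 difference of 1.42 (SE 0.087, limma adjusted p = 8.17e-05). Both transcripts passed the test at both doses whichever of the 9 libraries was left out.

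**Figure D1:**
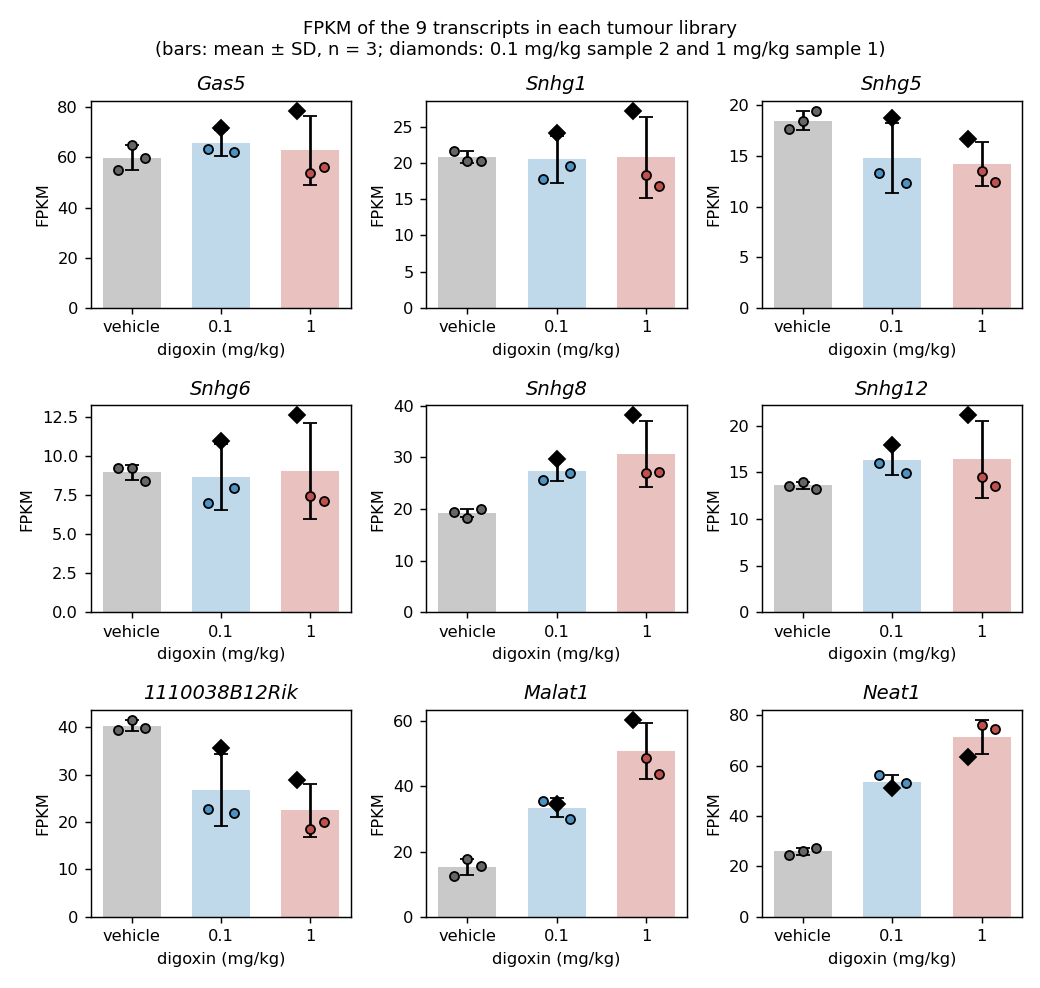
FPKM of the 9 transcripts (y axes, linear, from 0) in each library with vehicle, 0.1 and 1 mg/kg digoxin. Bars are means with SD (n = 3), circles are libraries, and black diamonds are 0.1 mg/kg sample 2 and 1 mg/kg sample 1, in which all 7 hosts had the highest value of their group.

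Between the doses, the higher dose had the higher level of both nuclear lncRNAs, but neither passed the test over all genes. The log2 difference of 1 mg/kg from 0.1 mg/kg was 0.59 for Malat1 (95% interval 0.25 to 0.92, unadjusted p = 0.00338, limma adjusted p = 0.162). It was 0.40 for Neat1 (95% interval 0.20 to 0.60, unadjusted p = 0.00141, limma adjusted p = 0.12). These were the 2 of 9 transcripts with an unadjusted p under 0.05, against 13.6% of tested genes, and limma-voom on the recovered reads also called 0 of 9. Of all tested genes, 0.0146% were called between the doses, and both of those 2 genes were lower at 1 mg/kg. Groups that did not overlap, with 1 mg/kg higher, were seen in 6.05% of tested genes, and Malat1 and Neat1 were among them.

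The transcript ends and the counting bear on these levels. Malat1 and the long form of Neat1 end in a triple helix that replaces the poly(A) tail, while the short form of Neat1 is polyadenylated, so a poly(A)-selected library need not follow their total amount. The recovered length behind the FPKM was 6990 bases for Malat1 and 21163 for Neat1, against 6983 and 20771 bases of exon in GENCODE M21. The short and long forms of Neat1 therefore share 1 value here.

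Of the 7 snoRNA hosts, Snhg8 alone rose and 1110038B12Rik alone fell, the same call at both doses. The other 5 did not pass the test at either dose. With Malat1 and Neat1, this made 4 of 9 transcripts called at the lower dose and 4 of 9 at the higher one, against 42.2% and 45.9% of all tested genes. In each comparison 3 of 9 were higher, against 21.6% and 20.7% of tested genes in dose order. The 1 that was lower compares with 20.7% and 25.2%. The split of all genes moved with the scaling: at 0.1 mg/kg 17.6% were higher and 26% lower with quantile normalisation, and 16.3% and 22.8% as TPM. Both comparisons use the same vehicle samples. At these shares the count of calls does not set the transcripts apart from other genes, and the sizes of change of Malat1 and Neat1 were the larger part of what was seen: 2 of 9 were called and changed at least 2-fold at each dose, against 8.93% and 10% of tested genes. Groups did not overlap for 4 transcripts above vehicle (32.3% of tested genes) and 1 below it (27.9%) at 0.1 mg/kg, and for 3 above (25.2%) and 2 below (33.1%) at 1 mg/kg.

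Snhg8, which carries Snora24, had 19.41, 18.29 and 19.93 FPKM in the vehicle tumours, 25.69, 29.60 and 26.87 FPKM at 0.1 mg/kg and 38.14, 26.91 and 27.18 FPKM at 1 mg/kg. All digoxin samples were above all vehicle samples, and the doses overlapped. It averaged 27.4 ± 2.01 FPKM at 0.1 mg/kg and 19.2 ± 0.837 FPKM with vehicle (SD, n = 3), 1.43 times as much (log2 difference 0.49, SE 0.131, limma adjusted p = 0.0179). The mean at 1 mg/kg was 30.7 ± 6.41 FPKM, 1.60 times the vehicle mean (log2 difference 0.63, SE 0.131, limma adjusted p = 0.00558). The call at 0.1 mg/kg was lost after rescaling to TPM (limma adjusted p = 0.0501) and when vehicle sample 2 (0.0642) or 0.1 mg/kg sample 3 (0.0506) was left out.

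1110038B12Rik, which carries Snord52, had 39.57, 41.64 and 39.92 FPKM in the vehicle tumours, 22.75, 35.57 and 21.95 FPKM at 0.1 mg/kg and 28.83, 18.60 and 19.98 FPKM at 1 mg/kg. All digoxin samples were below all vehicle samples, with sample 2 of the lower dose closest to vehicle. The mean was 26.8 ± 7.65 FPKM at 0.1 mg/kg and 40.4 ± 1.10 FPKM with vehicle (SD, n = 3), a ratio of 0.663 (log2 difference -0.61, SE 0.203, limma adjusted p = 0.0397). The mean at 1 mg/kg was 22.5 ± 5.55 FPKM, 0.557 of vehicle (log2 difference -0.84, SE 0.203, limma adjusted p = 0.0105). The call at 0.1 mg/kg was lost with no expression filter (limma adjusted p = 0.095), with a replicate block (0.0644), and when any of the 3 vehicle samples, 0.1 mg/kg sample 1 or 3, or 1 mg/kg sample 3 was left out (up to 0.135).

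Snhg5, the host of Snord50a and Snord50b, had 17.64, 18.46 and 19.49 FPKM in the vehicle tumours, 13.34, 18.76 and 12.29 FPKM at 0.1 mg/kg and 16.67, 13.48 and 12.48 FPKM at 1 mg/kg. The 1 mg/kg samples were all below vehicle, whereas sample 2 of the lower dose lay within the vehicle range. The log2 difference was -0.33 at 0.1 mg/kg (95% interval -0.68 to 0.03, limma adjusted p = 0.121) and -0.37 at 1 mg/kg (-0.72 to -0.01, limma adjusted p = 0.0825). Neither passed the test. Leaving out 0.1 mg/kg sample 2 gave limma adjusted p = 0.011 at 0.1 mg/kg and 0.0234 at 1 mg/kg, leaving out 1 mg/kg sample 1 gave 0.0319 at 1 mg/kg, and fitting only vehicle and 1 mg/kg gave 0.0353.

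Snhg12, which carries Snora16a, Snora44, Snora61 and Snord99, had 13.56, 13.96 and 13.21 FPKM in the vehicle tumours, 15.99, 17.93 and 14.90 FPKM at 0.1 mg/kg and 21.13, 14.46 and 13.57 FPKM at 1 mg/kg. At 0.1 mg/kg every sample exceeded every vehicle sample, and at 1 mg/kg the groups overlapped. The log2 difference was 0.24 at 0.1 mg/kg (95% interval -0.10 to 0.58, limma adjusted p = 0.217) and 0.23 at 1 mg/kg (-0.11 to 0.57, limma adjusted p = 0.237). Without 1 mg/kg sample 1, which supplies part of the shared estimate of spread, the adjusted p at 0.1 mg/kg was 0.0322 in limma.

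Gas5, first described as a transcript that accumulates in growth-arrested cells, was the most abundant host in every group. It had 55.07, 64.90 and 59.71 FPKM with vehicle, 63.28, 71.62 and 62.14 FPKM at 0.1 mg/kg and 78.70, 53.82 and 56.17 FPKM at 1 mg/kg. The groups overlapped, and 1 mg/kg sample 1 held the highest value of all 9. The log2 difference was 0.13 at 0.1 mg/kg (95% interval -0.19 to 0.46, limma adjusted p = 0.478) and 0.05 at 1 mg/kg (-0.27 to 0.38, limma adjusted p = 0.785). The sign at 1 mg/kg turned with quantile normalisation, with rescaling to TPM and without 1 mg/kg sample 1, so no direction can be given.

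Snhg1, the host of Snord22 and other box C/D snoRNAs, had 21.72, 20.33 and 20.22 FPKM with vehicle, 17.73, 24.15 and 19.63 FPKM at 0.1 mg/kg and 27.24, 18.38 and 16.87 FPKM at 1 mg/kg. Snhg6, the host of Snord87, had 9.232, 9.205 and 8.395 FPKM with vehicle, 6.966, 10.98 and 7.945 FPKM at 0.1 mg/kg and 12.60, 7.454 and 7.137 FPKM at 1 mg/kg. In both genes the vehicle samples lay between low and high digoxin samples. For Snhg1 the 95% interval of the log2 difference was -0.42 to 0.37 at each dose (limma adjusted p = 0.91 at 0.1 mg/kg and 0.92 at 1 mg/kg). For Snhg6 it was -0.55 to 0.41 with the lower dose and -0.50 to 0.46 with the higher one (limma adjusted p = 0.816 and 0.938). Changes of up to these bounds cannot be told from no change with 3 samples a group.

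**Figure D2:**
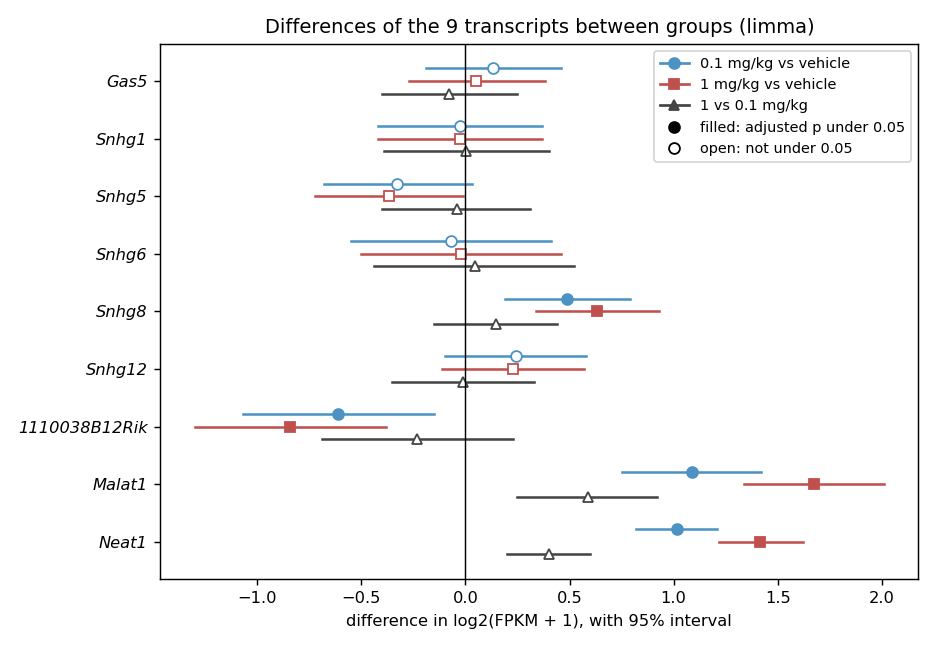
Difference in log2(FPKM + 1) with its 95% interval from limma (x axis) for each of the 9 transcripts and the 3 comparisons, with filled symbols for an adjusted p under 0.05. Malat1, Neat1 and Snhg8 lie to the right and 1110038B12Rik to the left at both doses, and no symbol of the comparison between doses is filled.

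The order of the levels changed with dose. The places of Snhg5 and Snhg6 in it rest on the long lengths behind their FPKM, and a shorter length would put them higher. To a lesser degree, the lengths of 1110038B12Rik, Snhg12 and Gas5 also exceeded their annotated exons. With vehicle the order ran Gas5, 1110038B12Rik, Neat1, Snhg1, Snhg8, Snhg5, Malat1, Snhg12 and Snhg6. Among neighbours, only the ranges of Snhg8 with Snhg5 and of Malat1 with Snhg12 overlapped. At 0.1 mg/kg it ran Gas5, Neat1, Malat1, Snhg8, 1110038B12Rik, Snhg1, Snhg12, Snhg5 and Snhg6. There the ranges of neighbours overlapped through the stretch that starts at Snhg8 and ends at Snhg5. With 1 mg/kg Neat1 had the highest mean, but its range of 63.5 to 76.0 FPKM lay inside the 53.8 to 78.7 FPKM of Gas5, which in turn overlapped the 43.8 to 60.4 FPKM of Malat1. From Snhg8 down, every pair of neighbours overlapped at that dose. Malat1 thus stood below 6 of the other transcripts with vehicle and below 2 of them at each dose.

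The hosts varied together within the digoxin groups. Sample 2 of the 0.1 mg/kg group and sample 1 of the 1 mg/kg group each held the highest value of their group for all 7 hosts, as did 5479 and 4510 of the 13687 tested genes. The summed FPKM of the 7 hosts was 166, 209 and 166 in the lower dose group and 223, 153 and 153 in the higher one, against 176, 187 and 181 with vehicle. The median host was 0.26 and 0.39 (log2) above the vehicle mean in these 2 libraries, and 0.08 to 0.28 below it in the other 4 digoxin libraries. Neat1 was at its lowest in each group in the same 2 libraries, while Malat1 was at its highest at 1 mg/kg in sample 1.

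The same 2 libraries differed from the rest of their groups in markers of other cells, but not in 1 direction. Their fibroblast sums were 475 and 451 FPKM, against 279 to 334 FPKM in the other digoxin libraries, a difference made by Col3a1 (383.7 and 309.6 FPKM, against 127.6 to 141.1 FPKM). Col1a1, at 68.08 and 119.7 FPKM, and Pdgfrb, at 5.267 and 5.275 FPKM, were at the lowest of their groups there. Their leukocyte sums, 343 and 267 FPKM, were the lowest of their groups, as were their skeletal muscle sums, 146 and 72.3 FPKM. Of the leukocyte markers, Ptprc was at the lowest of its group in 0.1 mg/kg sample 2 (3.736 FPKM). In 1 mg/kg sample 1, however, Ptprc was at the highest of its group, at 4.019 FPKM against 3.502 and 3.294 FPKM. The endothelial sums there, 30.6 and 19.9 FPKM, were also the lowest of their groups. Among the epithelial genes, Krt18 was at 16.84 and 8.844 FPKM, against 0.9317 to 1.623 FPKM in the other digoxin libraries. Krt19, at 5.562 and 9.441 FPKM, was also at the highest of its groups. Krt8 was at the lowest of its group in 0.1 mg/kg sample 2 (58.74 FPKM) and in the middle in 1 mg/kg sample 1 (115.8 FPKM). The part of these shifts in the host values was not tested. These libraries also lay between the groups in an earlier analysis of these data, which is why they were left out together as an alternative.

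**Figure D3:**
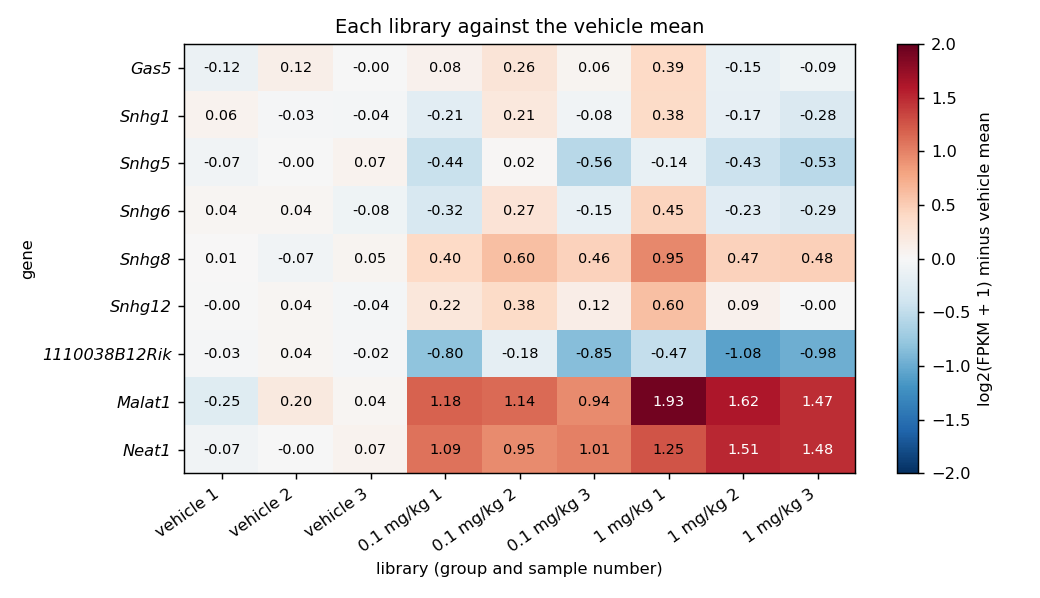
Each library's log2(FPKM + 1) minus the vehicle mean (colour and printed value) for the 9 transcripts (rows) in the 9 libraries (columns, by dose). In 0.1 mg/kg sample 2 and 1 mg/kg sample 1 the host rows are above those of the other libraries of their group, though not all above vehicle (1110038B12Rik is below it in both), whereas the Malat1 and Neat1 rows are above vehicle in all 6 digoxin libraries.

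Without these 2 libraries the spread was smaller and more transcripts were called, as were more genes in all. The libraries were picked because they lay between the groups, so a smaller spread and more calls follow from the choice. The calls and adjusted p-values in this paragraph therefore describe that choice and are not a separate test. At 0.1 mg/kg 7 of 9 were called (4 higher, 3 lower), against 61.5% of tested genes (31.9% higher, 29.6% lower). At 1 mg/kg 7 of 9 were called (3 higher, 4 lower), against 61.3% (31.4% higher, 29.9% lower). Snhg5 was then lower at both doses (log2 difference -0.50, limma adjusted p = 0.000694, at 0.1 mg/kg and -0.48, limma adjusted p = 0.000839, at 1 mg/kg). Snhg6 was lower too (-0.24, limma adjusted p = 0.0318, and -0.26, limma adjusted p = 0.0216). Snhg1 was called lower at 1 mg/kg (-0.23, limma adjusted p = 0.0271) and Snhg12 higher at 0.1 mg/kg (0.17, limma adjusted p = 0.044). Neat1 was called higher at 1 than at 0.1 mg/kg (0.45, limma adjusted p = 0.0195), where 3.4% of tested genes were called and 0.957% called higher. Snhg8, 1110038B12Rik, Malat1 and Neat1 stayed called at both doses, with log2 differences at 1 mg/kg of 0.47, -1.03, 1.55 and 1.5.

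Over the 9 libraries, the Pearson correlation of log2(FPKM + 1) was 0.98 between Snhg1 and Snhg6, 0.94 between Snhg5 and 1110038B12Rik, and 0.95 between Malat1 and Neat1. Between Snhg8 and Malat1 it was 0.91, and between 1110038B12Rik and Neat1 -0.88. These values describe 9 libraries that share 3 groups and the depth of each library, and they carry both the group differences and the shift of the 2 libraries. Among 11657 named tested genes, Acbd3 (0.944), Ubap1 (0.925) and Kansl3 (0.924) followed Gas5 most closely. Malat1 was followed by Zbtb21 (0.991), Pnrc1 (0.988) and Insig2 (0.988), and Neat1 by Lims2 (0.991), the clock gene Per1 (0.988) and Ppp2ca (0.987).

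What the FPKM counts within a host differs between the hosts. The recovered length was close to the exons of GENCODE M21 for Snhg1 (3011 against 2969 bases) and Snhg8 (860 against 853), but far above them for Snhg6 (4219 against 1146) and Snhg5 (3634 against 1730). Between these lay 1110038B12Rik (2597 against 1811), Snhg12 (2831 against 2402) and Gas5 (4001 against 3760). The annotation behind the table is not given in the sources used here, and how reads from retained introns entered these values is unknown. Within the hosts that were analysed, the annotation places 10 small RNA genes in Gas5 (Mir5117 among them), 8 in Snhg1, 5 in Snhg12, 2 each in Snhg5 and 1110038B12Rik and 1 each in Snhg6 and Snhg8. The mature snoRNAs were not analysed here. Zbtb37 overlaps Gas5 and Mcmdc2 overlaps Snhg6 on the opposite strand, and the library kit is not stated to keep strand. Zbtb37 stayed at 0.501 to 1.06 FPKM and Mcmdc2 at 0.0315 to 0.0833 FPKM.

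A further 14 noncoding snoRNA hosts were found in the table and 11 were tested. At 0.1 mg/kg 1 was higher and 2 were lower, and at 1 mg/kg 1 was higher and 3 were lower. The lower calls were about as frequent as the 20.7% and 25.2% over all tested genes, of which 21.6% and 20.7% were higher. The median log2 differences were -0.18 and -0.09. The medians of the 7 hosts above were -0.03 and -0.02, and those of all tested genes 0.02 and -0.04. Dancr averaged 3.89 ± 1.09 and 2.57 ± 0.27 FPKM at 0.1 and 1 mg/kg against 5.61 ± 0.155 FPKM with vehicle (log2 difference -0.89 at 1 mg/kg, SE 0.146, limma adjusted p = 0.00233). Snhg4 averaged 3.71 ± 1.66 and 2.44 ± 0.405 FPKM against 6.48 ± 0.919 FPKM (-1.12 at 1 mg/kg, SE 0.221, limma adjusted p = 0.00471). At 0.1 mg/kg both calls were lost when vehicle sample 2 or 3 or 0.1 mg/kg sample 1 or 3 was left out, and Dancr also without vehicle sample 1 (adjusted p up to 0.116 in limma). Epb41l4aos was the host that was higher, at 21.4 ± 3.30 and 21.3 ± 2.01 FPKM against 15.2 ± 1.38 FPKM. Its log2 difference was 0.46 at each dose (limma adjusted p = 0.0188 at 0.1 mg/kg, lost without vehicle sample 1 or 2 or 0.1 mg/kg sample 1, and 0.0164 at 1 mg/kg, lost without vehicle sample 2).

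Among the proteins that assemble snoRNAs into particles, more were called lower than higher. Of 17 snoRNP core proteins and assembly factors, 9 fell and 1 rose at each dose, where 20.7% and 25.2% of all tested genes fell and 21.6% and 20.7% rose in dose order (median log2 difference -0.34 at 0.1 mg/kg and -0.23 at 1 mg/kg). Dkc1, the pseudouridine synthase of box H/ACA particles, averaged 14.2 ± 5.08 and 14.1 ± 1.86 FPKM at 0.1 and 1 mg/kg against 31.8 ± 0.537 FPKM with vehicle (log2 difference -1.16, SE 0.204, limma adjusted p = 0.00361 and -1.13, SE 0.204, limma adjusted p = 0.00336). Snu13, which binds the kink-turn of box C/D snoRNAs, averaged 43.9 ± 6.28 and 41.3 ± 1.35 FPKM against 67.8 ± 3.77 FPKM. Ruvbl1, an ATPase used in particle assembly, averaged 41.0 ± 4.61 and 38.9 ± 3.25 FPKM against 57.7 ± 2.10 FPKM. In these 3 genes all digoxin samples were below all vehicle samples.

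Of 20 factors of nonsense-mediated decay, 8 were lower and 2 higher at 0.1 mg/kg (20.7% and 21.6% of all tested genes), and 7 were lower and 2 higher at 1 mg/kg (25.2% and 20.7%), with the calls in all near the share over all genes (median log2 difference -0.14 and -0.09). Gspt1 and Etf1 encode the translation release factors, which act in all termination. Gspt1 averaged 18.2 ± 0.978 and 20.5 ± 2.01 FPKM at 0.1 and 1 mg/kg against 31.1 ± 1.09 FPKM with vehicle (log2 difference -0.74, SE 0.084, limma adjusted p = 0.000759 and -0.58, SE 0.084, limma adjusted p = 0.00141). Etf1 averaged 34.8 ± 7.24 and 35.3 ± 3.49 FPKM against 62.2 ± 2.41 FPKM. Smg6, the endonuclease of this decay route, averaged 8.84 ± 3.02 and 8.51 ± 0.414 FPKM against 17.4 ± 0.944 FPKM, and like Gspt1 and Etf1 it was called lower at both doses whichever library was left out. Magohb, of the exon junction complex, and Dhx34 were the pair that was higher at both doses, with Magohb at 9.15 ± 0.742 and 7.78 ± 0.616 FPKM against 5.30 ± 0.247 FPKM.

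Of 12 coding transcripts known as decay targets, 6 rose and 2 fell at 0.1 mg/kg (21.6% and 20.7% of all tested genes), and 8 rose and 2 fell at 1 mg/kg (20.7% and 25.2%) (median log2 difference 0.44 and 0.58). Those that rose include Atf4, Atf3 and Ddit3, transcription factors of the integrated stress response, which are also induced at transcription. Ddit3 averaged 19.1 ± 3.05 and 21.5 ± 5.03 FPKM at 0.1 and 1 mg/kg against 7.72 ± 0.774 FPKM with vehicle (log2 difference 1.19, SE 0.168, limma adjusted p = 0.00161 and 1.35, SE 0.168, limma adjusted p = 0.000885). Upp1, uridine phosphorylase, averaged 33.7 ± 7.31 and 33.8 ± 0.823 FPKM against 12.6 ± 2.48 FPKM. Nat9 averaged 7.93 ± 0.735 and 7.55 ± 0.55 FPKM against 5.19 ± 0.439 FPKM. The pair that fell, Srsf2 and Srsf3, encodes splicing factors whose transcripts yield decay targets only through particular splice forms, which FPKM per gene do not separate. The call of Srsf2 at 0.1 mg/kg was lost without vehicle sample 2 or 0.1 mg/kg sample 1 or 3 (limma adjusted p up to 0.0568).

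Of 14 genes for paraspeckle proteins, 7 were lower and 1 higher at 0.1 mg/kg (20.7% and 21.6% of all tested genes), and 9 were lower and 1 higher at 1 mg/kg (25.2% and 20.7%) (median log2 difference -0.32 and -0.41). Nono, which binds Neat1 and is needed for paraspeckles, averaged 71.6 ± 7.22 and 76.2 ± 3.95 FPKM at 0.1 and 1 mg/kg against 103 ± 2.10 FPKM with vehicle (log2 difference -0.52, SE 0.086, limma adjusted p = 0.00298 and -0.42, SE 0.086, limma adjusted p = 0.00527). Cpsf6, a cleavage factor subunit, averaged 9.89 ± 0.826 and 9.83 ± 0.381 FPKM against 14.5 ± 1.16 FPKM, and Rbm14 averaged 11.8 ± 1.4 and 12.1 ± 0.148 FPKM against 16.6 ± 0.20 FPKM. The member that was higher was Pspc1, at both doses, but its call was lost on leaving out any 1 of 6 libraries at 0.1 mg/kg and of 7 at 1 mg/kg (limma adjusted p up to 0.123 and 0.165): each vehicle sample, 0.1 mg/kg samples 1 and 3 and 1 mg/kg sample 2, and for the higher dose also its sample 3.

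Of 16 nuclear speckle and splicing proteins, 5 were lower and 1 higher at each dose (median log2 difference -0.12 and -0.09). Over all tested genes, 20.7% and 25.2% were lower and 21.6% and 20.7% higher, in dose order. Srrm2, a scaffold protein of speckles, averaged 45.5 ± 6.00 and 43.8 ± 0.679 FPKM at 0.1 and 1 mg/kg against 71.5 ± 6.12 FPKM with vehicle (log2 difference -0.65, SE 0.103, limma adjusted p = 0.00246 and -0.69, SE 0.103, limma adjusted p = 0.00159). The kinase gene Clk4 was the member that was higher, at 19.6 ± 1.49 and 20.1 ± 5.03 FPKM against 11.8 ± 1.5 FPKM. Its call at 0.1 mg/kg was lost without vehicle sample 1 or 0.1 mg/kg sample 3 (limma adjusted p up to 0.057).

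**Figure D4:**
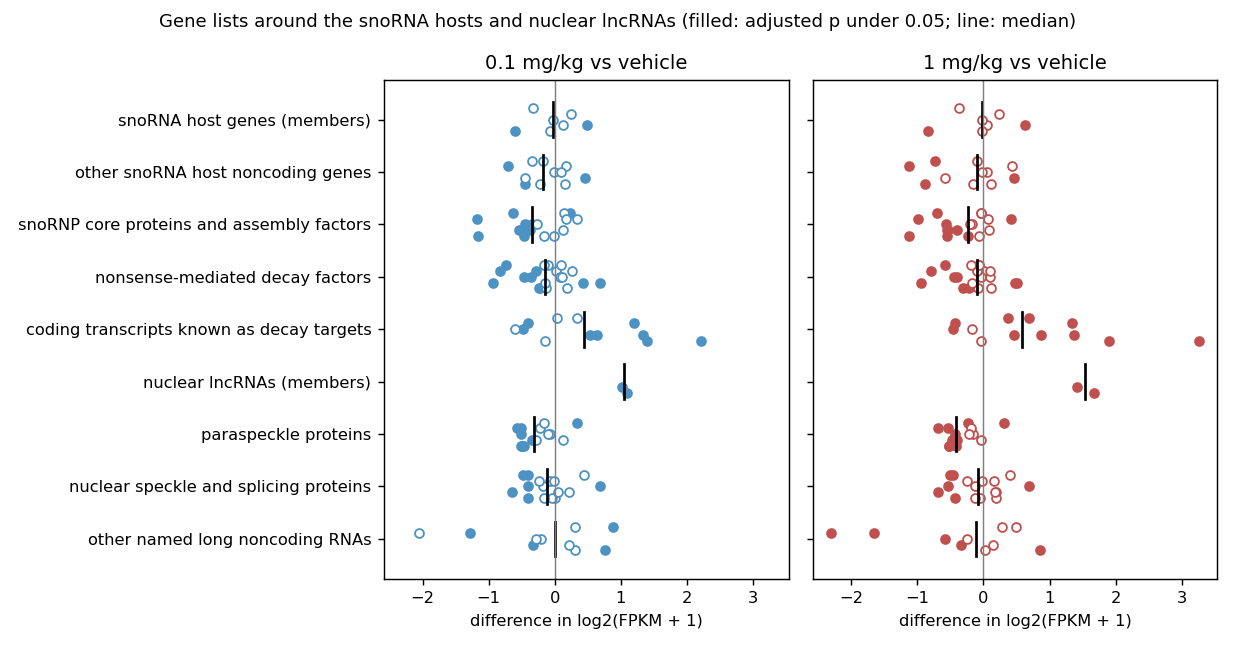
Difference in log2(FPKM + 1) from vehicle (x axis) of every tested gene in each list (rows), at 0.1 mg/kg (left) and 1 mg/kg (right). Filled points have an adjusted p under 0.05 and black lines are medians: both nuclear lncRNAs and 8 of 12 decay targets lie right of 0 at both doses, and most called snoRNP, decay factor and paraspeckle genes lie left of it.

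Of 16 other named lncRNAs, 15 were found and 10 tested. With 0.1 mg/kg 2 were higher and 2 lower, close to the 21.6% and 20.7% of all tested genes, and at 1 mg/kg 1 was higher and 4 lower, against 20.7% and 25.2% (median log2 difference 0.01 and -0.11). Mir22hg, the host of a microRNA, averaged 17.2 ± 0.44 and 18.5 ± 2.64 FPKM at 0.1 and 1 mg/kg against 9.79 ± 0.707 FPKM with vehicle (log2 difference 0.76, SE 0.102, limma adjusted p = 0.00135 and 0.85, SE 0.102, limma adjusted p = 0.000772). The imprinted H19 averaged 9.5 ± 2.85 and 7.43 ± 3.31 FPKM against 24 ± 1.89 FPKM (-1.28, SE 0.296, limma adjusted p = 0.0101 and -1.65, SE 0.296, limma adjusted p = 0.00321).

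Among genes next to the transcripts, Frmd8, a neighbour of Neat1, was called at neither dose. It averaged 23.0 ± 0.724 and 22.6 ± 3.95 FPKM at 0.1 and 1 mg/kg against 20.5 ± 0.322 FPKM with vehicle (limma adjusted p = 0.30 and 0.431). Next to Snhg1, the amino acid transporter subunit gene Slc3a2 rose to 99.2 ± 16.5 and 115 ± 27.3 FPKM, against 63.1 ± 5.10 FPKM with vehicle (log2 difference 0.63, limma adjusted p = 0.0201 and 0.84, limma adjusted p = 0.00593), while the 95% interval of Snhg1 included 0. The call of Slc3a2 at 0.1 mg/kg was lost with no expression filter and without vehicle sample 2 or 3 or 0.1 mg/kg sample 1 or 3 (limma adjusted p up to 0.0739). In the comparison between doses, 0 members of any of these lists were called.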

How the data were processed

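The deposited table holds FPKM values for 35321 genes in 9 samples, computed by the authors. The submitters' processing notes list fastp (0.22.0), HISAT2 (2.2.1) and a human genome build, whereas the symbols are those of mouse genes. Neither the read counter nor the annotation is named there. Libraries were made from poly(A)+ RNA and read as 150 bp pairs, per the labels' protocols.

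Library depths were recovered from the spacing of the FPKM values: 99.9562% of the tested genes then gave whole reads in every library, within 0.03 reads. These reads served only for a limma-voom alternative. The deposited FPKM were tested as log2(FPKM + 1), a scale that understates the change of low genes, with limma (version 3.58.1, R 4.3.3), taking all 9 samples in 1 fit with a mean for each group, a mean-variance trend, two-sided, no replicate block. Genes that reached 1 FPKM in 3 or more samples entered, and p-values were adjusted over all of them. The step was tested on simulated data. Python 3.11.15 was used for the rest.

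The members and gene lists were chosen with earlier results of these data known, and so was the pair of libraries left out together. From each other list, at most 4 genes with the smallest unadjusted p of a comparison were named with values. Beyond that rule, genes named by their call alone, the overlapping genes Zbtb37 and Mcmdc2, and Frmd8 were named after their values had been seen. Some genes that the rule named are left out. Start-site sequences are from RefSeq (GRCm38.p6), with starts for 8 of the 10 symbols (not Snhg6 and Neat1), and gene overlaps from GENCODE M21.

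Alternatives covered the pseudocount, the filter, the scaling between libraries, the empirical Bayes settings, the samples in the fit, each library left out in turn, a replicate block, a 2-fold threshold and limma-voom.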

Additional observations from a re-analysis of the deposited data

How the results depend on the processing

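The number of the 9 transcripts called stayed within 1.5 times its value under most of the 23 alternatives per comparison. With a 2-fold threshold it was 2 at each dose, and without both libraries named above it was 7 at each dose and 1 between the doses. Leaving out each library in turn gave 2 to 5 at 0.1 mg/kg (2 without vehicle sample 2 and 2 without 0.1 mg/kg sample 3), 4 to 5 at 1 mg/kg and 0 to 0 between the doses. With a replicate block the counts were 3, 4 and 0. Deviations of same-numbered samples from their group means correlated between -0.441 and 0.279. Groups of 3 are too few for these values to settle whether the numbers mark pairs.

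Signs turned only where a difference was near 0, and the cause was not tested. Gas5 at 1 mg/kg was -0.016 with quantile normalisation, -0.034 as TPM and -0.12 without both libraries. Between the doses, Snhg12 was 0.013 with quantile normalisation, 0.0145 as TPM and 0.033 with equal medians, and Snhg5 was 0.0032 with equal medians. Without both libraries, the differences between the doses were 0.017 for Snhg5, -0.079 for Snhg1 and -0.025 for Snhg6. Leaving out single libraries gave ranges that crossed 0. At 0.1 mg/kg they were -0.15 to 0.067 for Snhg1 and -0.24 to 0.059 for Snhg6. At 1 mg/kg they were -0.12 to 0.15 for Gas5, -0.23 to 0.10 for Snhg1 and -0.26 to 0.11 for Snhg6. Between the doses they were -0.25 to 0.0205 for Gas5, -0.20 to 0.13 for Snhg1, -0.16 to 0.13 for Snhg5, -0.19 to 0.21 for Snhg6, -0.015 to 0.23 for Snhg8 and -0.20 to 0.10 for Snhg12. Malat1 and Neat1 were called at both doses under every alternative without the 2-fold threshold.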
